A study of Mus musculus with 14 samples.

Results

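A list of 150 array probes that were lower both after retinoic acid and after the kinase inhibitor LY294002 was followed through 7 groups of mouse embryonic stem (ES) cell samples. It is 150 of the 42006 probes on the array. The list was chosen on measured values. Agilent's log ratio of each spot was turned to log2 of sample over reference and centred on its array's median. A probe qualified when it was well above background in the sample channel on all control day 3 and standard day 3 arrays, which 23566 probes were. Its score was the smallest of 3 differences (control minus retinoic acid, control minus LY294002, standard minus LY294002), and the 150 probes with the highest scores form the list. Differences that involve the control, standard, retinoic acid or LY294002 arrays are therefore given as a description, with no test. The tests below compare the 3 groups whose arrays did not enter the choice.

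Retinoic acid (RA) is the active derivative of vitamin A. It binds nuclear receptors that switch genes on directly, and ES cells exposed to it leave the undifferentiated state and lose the transcripts of that state. The cytokine LIF and signalling through phosphoinositide 3-kinase both help to keep mouse ES cells undifferentiated. LY294002 blocks phosphoinositide 3-kinase and can also act on related kinases, among them mTOR, which governs protein synthesis and growth. The title and design text of the series name its subject as undifferentiated colonies that appear in ES cell cultures under RA, so the question addressed here is where probes lowered by both agents stand in those colonies and in cells grown on without RA.

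Each group held 2 arrays. The cultures were kept in ES medium, with LIF wherever the labels or the sample names give a supplement. Control day 3 was the subline MC1-ZE3, strain 129/Sv, grown for 3 days as the control of the treatment experiment. RA 48 h was MC1-ZE3 plated for 24 h and then given 50 nM all-trans RA for 48 h, and LY294002 48 h was MC1-ZE3 plated for 24 h and then given the inhibitor for 48 h (labelled as 10 nM, which may not be the unit meant). Standard day 3 was MC1-ZE3 in standard culture without treatment. Day 4 colonies were hand-picked from MC1-ZE16 cells, strain 129/Sv, on day 4 in 50 nM RA, and day 7 colonies were hand-picked from the line ES MC1, strain 129SvEv-Tac, on day 7 in 50 nM RA. Passage 10 was MC1-ZE3 kept in RA for 7 days and then for 10 passages without it, with RNA taken on day 3 after plating. The labels' extraction text gives picked and pooled colonies for every group but day 7 colonies, for which it gives 1 well. Whether the replicates of a group are separate cultures is not said in the labels, so the p-values measure no more than the spread between these samples, and that spread may be technical alone.

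Every array set the Cy3-labelled sample against a Cy5-labelled reference, which was RNA pooled from several mouse cell lines and mixed with RNA of 129 ES cells. A log2 ratio of 0 thus means as much signal as in that mixture, and a log2 ratio of 1 means 2-fold more. No gene is given for any probe in the files, and 0 of the 150 oligonucleotides were found whole in the RefSeq promoter and miRNA tables used here. Probes are therefore named by identifier and sequence, and the lists of pluripotency, RA response and cell type marker genes could not be applied, so the labelled cell type was not checked against its markers. Because cells of a culture were pooled, fewer cells holding an RNA and less of it per cell cannot be told apart.

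The sequences shown first belong to the probes that the comparisons turn on, each 60 bases and written 5′ to 3′ in lower case. The first line below is the probe with the highest score, and the 8 that follow had the largest falls or rises among the groups not used for the choice.
Z00010159-1: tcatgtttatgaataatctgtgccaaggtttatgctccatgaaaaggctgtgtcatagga
Z00025439-1: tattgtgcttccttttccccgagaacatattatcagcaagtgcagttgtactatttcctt
Z00023546-1: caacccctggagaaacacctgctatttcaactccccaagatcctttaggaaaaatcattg
Z00030538-1: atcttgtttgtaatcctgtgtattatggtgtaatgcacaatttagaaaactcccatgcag
Z00025416-1: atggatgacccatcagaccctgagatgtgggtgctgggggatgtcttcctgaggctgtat
Z00030587-1: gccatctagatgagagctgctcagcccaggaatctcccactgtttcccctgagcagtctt
Z00022498-1: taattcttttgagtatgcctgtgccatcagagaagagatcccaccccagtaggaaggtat
Z00074574-1: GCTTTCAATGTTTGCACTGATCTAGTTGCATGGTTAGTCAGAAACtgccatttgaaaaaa
Z00002490-1: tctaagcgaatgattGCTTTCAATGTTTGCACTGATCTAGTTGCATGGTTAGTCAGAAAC
The capitals in the last pair mark the 45 bases that both oligonucleotides hold. They read the same stretch of RNA and are not independent of each other.

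Overlap of this kind was found in 7 pairs of members, each sharing between 24 and 54 bases in a row on the same strand, so that the 150 probes came to 143 sequences without such an overlap. A pair was counted from a shared run of at least 20 bases. The 4 oligonucleotides below, shown because they are the pair with the longest overlap and the pair lowered most by LY294002, were picked after their values were seen.
Z00055538-1: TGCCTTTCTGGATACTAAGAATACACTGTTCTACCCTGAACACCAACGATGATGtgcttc
Z00074709-1: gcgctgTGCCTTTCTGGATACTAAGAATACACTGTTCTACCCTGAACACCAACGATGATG
Z00025925-1: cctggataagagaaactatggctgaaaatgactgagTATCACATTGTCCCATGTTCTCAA
Z00070376-1: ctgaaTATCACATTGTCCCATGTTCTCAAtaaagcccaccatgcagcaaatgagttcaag
Capitals again mark the shared bases, 54 in the first pair and 24 in the second. The first pair changed by -1.89 and -2.05 on the log2 scale in day 4 colonies against passage 10. In the second pair the change after LY294002 against control was -4.31 and -4.30, and after RA -2.24 and -2.08. Within all 7 pairs the partners' log2 changes lay within 0.23 of each other in day 4 colonies and within 0.17 in day 7 colonies, both against passage 10. A further 6 members overlapped with a probe outside the list. The partners bright enough to qualify ranked 177, 237, 411, 3005 and 7842 by score. The remaining partner, Z00026112-1, did not qualify and so had no rank by score. Overlap did not always bring a like score, as in a pair picked out after its values were seen: Z00073950-1, a member at 1.77, shared 52 bases with Z00075833-1, which scored 0.131, and their changes after LY294002 against control were -2.40 and -1.39.

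The 150 oligonucleotides had a median GC share of 45.0% (25.0% to 61.7%) against 45.0% over all tested probes. The hexamer AATAAA, which in messenger RNA is the usual signal for adding the poly(A) tail and lies near the 3′ end, was present in 20 members (13.3%). It was present in 7.38% of all tested probes and in 7.94% of the probes bright enough to qualify. On the opposite strand it was present in 1 member (0.667%), in 3.07% of all tested probes and in 3.16% of those bright enough to qualify. A match is a run of letters in the oligonucleotide, and neither share was tested.

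The scores ran from 3.25 for Z00010159-1 and 2.63 for Z00053795-1 down to 1.243 for Z00004889-1 and 1.229 for Z00009889-1, the last ones inside. Just outside lay Z00024500-1 at 1.229 and Z00075697-1 at 1.227, so the lower edge of the list is not a gap in the data. The smallest of the 3 differences was the one between control and RA for 107 members, between control and LY294002 for 25, and between standard and LY294002 for 18. Choosing the 150 probes by the same rule on the background-corrected, loess-normalized ratios used below kept 92 of them.

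By construction the members were high in the untreated cells and lower under both agents. The median member stood at a log2 ratio of 0.96 and 0.92 on the 2 control day 3 arrays (quartiles 0.39 to 1.53 and 0.36 to 1.50) and at 0.70 and 0.69 on the standard day 3 arrays (0.34 to 1.34 and 0.36 to 1.35). On the RA 48 h arrays the median was -0.05 and -0.06 (-0.48 to 0.25 and -0.50 to 0.21), and on the LY294002 arrays -0.42 and -0.36 (-1.10 to -0.12 and -0.94 to -0.08). The arrays of a group lay close together, and the upper quartile of both treated groups lay below the lower quartile of the control and standard arrays.

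RA at 48 h lowered the 150 members by a median of 1.12 on the log2 scale against control (changes of -2.30 to -0.15), and LY294002 by a median of 1.60 (-4.31 to -0.13). Against standard day 3 the LY294002 change had a median of -1.32 (-3.72 to -0.19). All 3 directions were fixed by the choice of the list. After LY294002, 26 members were well above background on neither array and 12 on one, and after RA 8 and 10. For members at background the full size of the fall was not measured. The control and RA arrays shared 1 slide and the LY294002 arrays lay on another, so for LY294002 the slide and the agent cannot be told apart.

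The size of the fall differed between the agents, though the doses were 50 nM RA and a doubtful 10 nM LY294002 and the compounds are unrelated. The ratio after RA minus that after LY294002 had a median of 0.33 (-0.49 to 2.22), against 0.01 over all tested probes. It was above 0 for 121 of the 150 members. Both RA arrays lay above both LY294002 arrays for 106 members (41.5% of all tested probes) and below them for 15 (36.2%). These arrays chose the list, so this is a description only. LY294002 held the lowest mean of the 7 groups for 75 members, day 7 colonies for 35, day 4 colonies for 31 and RA 48 h for 9. None of control day 3, standard day 3 and passage 10 held the lowest mean of any member. For control and standard this was fixed by the choice. Control day 3 held the highest mean for 73, passage 10 for 37, standard day 3 for 30, day 4 colonies for 6 and day 7 colonies for 4. For 102 members the means of control, standard and passage 10 all exceeded those of the 4 groups exposed to an agent at the time. Part of that order was fixed by the choice, which set control above both agents and standard above LY294002. Passage 10 lay near standard (median difference -0.01, against 0.01 over all tested probes). Shares over all tested probes were not counted for the lowest and highest means or for this order. Well above background on no array of the group were 26 members for LY294002, 36 for day 4 colonies, 14 for day 7 colonies and 8 for RA 48 h. Where a member was at background in more than 1 group, which of them was lowest is not resolved.

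The 2 probes with the highest scores were dim. Z00010159-1 read 0.45 and 0.75 on the control arrays, 0.31 and 0.14 on the standard arrays, -0.28 and -0.34 after RA and -0.28 and -0.14 after LY294002. Its mean sample signal was 90.6 and 102 intensity units on the control arrays and 53.2 and 52.0 after RA, where it was not well above background. The background correction, which adds an offset to every signal, draws the ratios of dim spots toward 0: its smallest difference, standard minus LY294002, was 3.25 in Agilent's ratios, while LY294002 minus standard was -0.44 here. Z00053795-1, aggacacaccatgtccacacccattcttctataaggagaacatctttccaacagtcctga, read 1.67 and 1.58 on the control arrays and -0.43 on both RA arrays, and was again not well above background after RA.

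Passage 10 cells, 10 passages after 7 days in RA, carried these probes near their level in standard day 3 cells. The members' median log2 ratio was 0.75 and 0.72 on the passage 10 arrays (quartiles 0.26 to 1.36 and 0.24 to 1.28), and 145 and 148 of them were well above background. The difference from standard day 3 had a median of -0.01 and a range of -0.57 to 0.92, and that from control day 3, on another slide and scan day, a median of -0.10 and a range of -2.40 to 1.40. Over all tested probes these medians were 0.01 and -0.01, so a median near 0 was not particular to the members. Both passage 10 arrays lay below both standard arrays for 50 members (21.4% of all tested probes) and above them for 44 (24.4%). The first passage 10 array shared slide 2 with the first standard array, and the second shared slide 3 with the second. Within slide 2 the members' differences from standard had a median of 0.00 (-0.58 to 1.06), and within slide 3 a median of -0.03 (-0.57 to 0.78). On both passage 10 arrays, 55 members (36.7%) exceeded the reference by 2-fold or more, against 4.97% of all tested probes. Falling short of it by that factor were 8 members, 5.33% against 11.7%. The count of 55 depended on the scaling: it was 102 with Agilent's processed ratios (15.0% of all tested probes) and 23 with median centring in place of loess (1.24%).

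Passage 10 thus served as the baseline that had not entered the choice, with one reservation. Its arrays lay on the 2 slides that also carried the standard day 3 arrays, and its values were near theirs, so probes chosen as high in standard day 3 are likely to be high in passage 10 as well. How much of the falls below came through that choice was not tested. The shares over all tested probes also take in probes that were not bright enough to qualify for the list. Shares over the 23566 that qualified are not given here.

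Day 4 colonies, picked in RA, held the members at a lower level than passage 10 cells. The median member stood at -0.13 and -0.12 on the day 4 arrays (quartiles -0.62 to 0.29 and -0.62 to 0.26), and 53 and 57 of the 150 lay above the reference, against 127 and 129 on the passage 10 arrays. In limma's moderated test, with a Benjamini-Hochberg adjusted p under 0.05 over 31053 tested probes as the threshold, 120 members fell (80.0%, where 24.4% of all tested probes fell) and 8 rose (5.33%, where 25.8% rose). The median change was -0.83 on the log2 scale (quartiles -1.53 and -0.44, range -4.05 to 2.45) against 0.01 over all tested probes, and 133 members had a change below 0. Falls of at least 2-fold numbered 63 (3.62% of all tested probes) and rises of that size 3 (3.97%).

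The direction held in the arrays themselves, since both day 4 arrays lay below both passage 10 arrays for 130 members (36.5% of all tested probes) and above them for 11 (38.6%). The size depended on the processing: the members' median change was -1.77 with Agilent's processed ratios and -1.71 in the authors' value table, which holds 115 of the members. Of the 120 members that fell, 85 were well above background on both day 4 arrays, 3 on one and 32 on neither, so that for the 32 the full size of the fall was not measured. Restricted to the 98 members well above background on all 14 arrays, 83 fell (84.7%, against 31.5% of the probes so restricted) and 6 rose.

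The largest fall in day 4 colonies was that of Z00025439-1. It read 1.36 and 1.43 on the passage 10 arrays, -2.64 and -2.66 in day 4 colonies and -0.83 and -0.41 in day 7 colonies. It was bright, with mean sample signals of 4942 and 4389 intensity units in passage 10 and 194 and 188 in day 4 colonies. The fall of 4.05 (SE 0.11, n = 2 and 2 arrays, limma adjusted p = 3.02e-11) is 16.6-fold, far beyond the gap between arrays. On the arrays of the choice it read 1.51 and 1.56 in control, 1.95 and 1.98 in standard, -0.06 and -0.14 after RA and -0.71 and -0.82 after LY294002, so day 4 colonies held the lowest values of the 7 groups.

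Z00023546-1 fell in both kinds of colony. It read 1.71 and 1.60 in passage 10, -1.47 and -1.46 in day 4 colonies and -1.85 and -1.43 in day 7 colonies. Against passage 10 the change was -3.12 in day 4 colonies (SE 0.11, limma adjusted p = 1.78e-10, 8.69-fold lower) and -3.29 in day 7 colonies (SE 0.11, limma adjusted p = 6.59e-11, 9.80-fold lower). The colonies overlapped, and day 7 minus day 4 was -0.17 (SE 0.11, limma adjusted p = 0.188). After LY294002 it read -1.53 and -1.51, within the range of the colonies, and after RA -0.23 and -0.33, which lay between those and the control values of 1.35 and 1.40.

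The pair Z00074574-1 and Z00002490-1 rose most in day 4 colonies. Z00074574-1 read 0.55 and 0.67 in passage 10 and 3.06 and 3.07 in day 4 colonies, a rise of 2.45 (SE 0.10, limma adjusted p = 5.13e-10, 5.47-fold). In day 7 colonies it read 0.08 and -0.05, below passage 10 by 0.60 (change -0.60, SE 0.10, limma adjusted p = 1.35e-04). Day 4 colonies thus stood above every other group: control read 0.04 and 0.02, standard 0.89 and 1.04, RA 48 h -0.95 and -1.01, and LY294002 -2.91 and -2.61. Z00002490-1, its overlapping partner, gave 3.06 and 3.13 in day 4 colonies against 0.63 and 0.73 in passage 10 (change 2.42, SE 0.09, limma adjusted p = 2.59e-10). The RNA that was lowest after the inhibitor and lower after 48 h of RA was highest in the colonies picked on day 4 in RA. Those colonies were of another subline, MC1-ZE16, and lay on another slide, which cannot be told apart from picking and growth in RA.

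The 2 highest-scoring probes were below passage 10 in day 4 colonies too. Z00010159-1 read 0.73 and 0.49 in passage 10 and -0.13 and -0.21 in day 4 colonies (change -0.78, SE 0.11, limma adjusted p = 4.90e-05). Z00053795-1 read 0.57 and 0.62 against -0.22 and -0.47 (change -0.94, SE 0.09, limma adjusted p = 2.72e-06). Neither was well above background on a day 4 array, so how far they fell below that level was not measured. Their changes in day 7 colonies, where each was well above background on 1 of 2 arrays, were -0.93 (SE 0.11, limma adjusted p = 8.97e-06) and -0.96 (SE 0.09, limma adjusted p = 1.87e-06).

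Day 7 colonies also held the members below passage 10. The median member stood at -0.28 and -0.15 on the day 7 arrays (quartiles -0.80 to 0.22 and -0.60 to 0.35), and 56 and 60 of the 150 lay above the reference. In limma's test 119 members fell (79.3%, where 26.6% of all tested probes fell) and 9 rose (6.00%, where 29.1% rose). The median change was -0.90 (quartiles -1.44 and -0.35, range -4.14 to 2.82) against 0.01 over all tested probes. Falls of at least 2-fold numbered 65 (3.57% of all tested probes), and 1 rise had that size (5.97%).

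Both day 7 arrays lay below both passage 10 arrays for 123 members (35.5% of all tested probes) and above them for 10 (38.5%). The 2 day 7 arrays lay farther apart than those of other groups, with a median gap of 0.17 over the members and gaps of 0.06 to 0.11 in the other 6 groups. Without the first day 7 array 15 members rose in place of 9 (28.0% of all tested probes). The median change was -1.64 with Agilent's processed ratios and -1.72 in the authors' value table. Of the 119 that fell, 93 were well above background on both day 7 arrays, 12 on one and 14 on neither. Among the 98 members well above background everywhere, 78 fell (79.6%, against 32.8% of the probes so restricted) and 6 rose.

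Z00030538-1 had the largest fall in day 7 colonies. It read 2.12 and 1.98 in passage 10, -2.09 and -2.08 in day 7 colonies and -0.60 and -0.64 in day 4 colonies. The change of -4.14 (SE 0.08, limma adjusted p = 8.84e-13) is a 17.6-fold fall, and in day 4 colonies the change was -2.68 (SE 0.08, limma adjusted p = 4.62e-11, 6.39-fold lower). Day 7 minus day 4 was -1.46 (SE 0.08, limma adjusted p = 8.11e-09). RA 48 h, at -0.81 and -0.86, and LY294002, at -0.70 and -0.79, lay near day 4 colonies, while day 7 colonies lay below all of them.

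Z00025416-1 moved the other way in day 7 colonies. It read 1.06 and 0.98 in passage 10 and 3.93 and 3.75 in day 7 colonies, a rise of 2.82 (SE 0.07, limma adjusted p = 9.34e-12, 7.04-fold). In day 4 colonies it read 0.59 and 0.51, below passage 10 (change -0.48, SE 0.07, limma adjusted p = 8.56e-05). The day 7 values were above those of every other group, since control read 2.47 and 2.54, standard 1.01 on both arrays, RA 48 h 1.37 and 1.38 and LY294002 -0.63 and -0.62.

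Z00030587-1 rose less. It read 1.11 and 1.09 in passage 10 and 1.77 and 1.86 in day 7 colonies (change 0.72, SE 0.07, limma adjusted p = 1.16e-06), and -0.04 and -0.02 in day 4 colonies (change -1.14, SE 0.07, limma adjusted p = 1.95e-08). The day 7 values lay below the control values of 2.15 and 2.18 and above the standard values, 1.38 on both arrays. Its passage 10 values were thus below both untreated groups.

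Between the 2 kinds of colony the members had no common direction. Day 7 colonies were lower than day 4 colonies for 50 members (25.4% of all tested probes were lower) and higher for 52 (27.4%), with a median change of -0.02 (quartiles -0.37 and 0.36, range -3.09 to 3.29) by limma. Changes of at least 2-fold numbered 12 downward (2.61%) and 12 upward (4.36%). Median centring in place of loess gave 27 lower (8.12% of all tested probes) and 43 higher (25.0%). Against passage 10, 11 members (7.33%) were lower in one kind of colony and higher in the other, with all 3 comparisons past the threshold, near the 6.25% of all tested probes. The groups' arrays did not overlap for 64 members with day 7 lower (36.0%) and 61 with day 7 higher (37.7%). Day 4 and day 7 colonies came from different lines, were picked on different days and lay on different slides, and these cannot be told apart.

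The largest differences between the colonies were carried by probes already shown and by Z00022498-1. That probe read 1.38 and 1.42 in day 4 colonies and -1.70 and -1.68 in day 7 colonies, a change of -3.09 (SE 0.07, limma adjusted p = 2.45e-11, 8.49-fold lower). With 0.67 and 0.64, passage 10 lay between them, below day 4 colonies by 0.74 (SE 0.07, limma adjusted p = 2.72e-06) and above day 7 colonies (change -2.34, SE 0.07, limma adjusted p = 6.01e-11). Control, at 1.65 and 1.59, was near the day 4 level. Z00074574-1 and Z00002490-1 each changed by -3.05 from day 4 to day 7 colonies (limma adjusted p = 1.45e-10 and 6.03e-11). Upward, Z00025416-1 changed by 3.29 (SE 0.07, limma adjusted p = 1.15e-11) and Z00025439-1 by 2.03 (SE 0.11, limma adjusted p = 8.81e-09).

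The extent of the 48 h fall was set beside the change in colonies across the 150 probes, over pairs of comparisons with no array in common. Across members the RA change and the day 4 change had r = 0.429 (rho = 0.470), and over all 31053 tested probes r = 0.366. For RA and day 7 colonies r was 0.307 (rho = 0.280), and 0.403 over all tested probes. LY294002 and day 4 colonies gave r = 0.204 (rho = 0.279) in the members and -0.192 over all tested probes. With day 7 colonies the LY294002 change gave 0.00594 (rho = 0.0548) and -0.227. These are descriptions across probes, which share arrays and in part sequence and are not replicates. The choice of members narrows the range of both 48 h changes. The offset draws the changes of dim spots toward 0 in both comparisons of a pair, and 36 members were well above background on neither day 4 array. The part of brightness in r was not tested.

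Lists of the same length chosen by 1 agent, and drawn up with the results in view, put these counts in context. The 150 probes that RA lowered most against control share 72 members with the list, and of them 130 fell and 5 rose in day 4 colonies (median change -0.96) and 119 fell and 9 rose in day 7 colonies (median -0.92), by limma. The 150 probes that LY294002 lowered most against both control and standard share 28 members. Of these 55 fell and 67 rose in day 4 colonies (median 0.15), and 81 fell and 45 rose in day 7 colonies (median -0.39). Over all tested probes 24.4% fell and 25.8% rose in day 4 colonies, and 26.6% fell and 29.1% rose in day 7 colonies. The members stood near the RA list in these counts, and no test of the difference between lists was made.

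Slides and scan days moved with the groups. The arrays lay on 6 slides and were scanned on 4 days, with each kind of colony alone on its slide, so slide, subline and picking cannot be told apart from growth in RA. Day 4 colonies and the second passage 10 array were scanned on 1 day, and against that array alone 116 members fell (21.2% of all tested probes) and 8 rose (22.0%) in limma's fit, beside 120 and 8. Between 56.2% and 75.1% of the spots on an array were well above background, with a median signal of 1.88 to 2.96 times background. That share was 58.5% on both day 4 arrays and 56.2% and 58.6% on the passage 10 arrays, and on the day 7 arrays it was 66.1% and 66.3%. The part of slide, scan day and brightness in these results was not tested further.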

How the data were processed

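Total RNA of 14 ES cell samples, 2 in each of 7 groups taken from the sample titles, was measured on 2-colour Agilent arrays. Per the file headers, version 9.5.1.1 of Agilent's extraction software read the scans. From each deposited scanner file the raw intensity per channel (spot mean and local background median) was used, which is not normalized. A log10 ratio, Cy5 over Cy3, is deposited beside it. A value table by the authors covers 25030 probes on a log10 scale, with medians of the columns of 2.236 to 2.321. Its deviations from each probe's mean tracked those of minus the scanner log10 ratio (r = 0.99804 to 0.99969). This was computed over the 15452 probes whose lowest value in the table passed a set level. The direction of the table is thus sample over reference, while the constant it is centred on is unknown.

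Intensities were background-corrected with normexp (offset 50) and loess-normalized within arrays with control spots at weight 0, in limma 3.58.1 under R 4.3.3 (statmod 1.5.0, version 1.17.8 of data.table). The log2 ratios computed from the deposited intensities were turned to sample over reference. Control spots and 1 to 24 outlier spots per array were dropped, and spots of a probe averaged. A probe was tested when well above background in Cy3 on both arrays of at least 1 group (31053 of 42006, 73.9%). All 150 members passed, each through the groups in which it was chosen to be high. Saturated Cy3 spots numbered 0. One lmFit model of 7 group means used the 14 arrays (7 residual degrees of freedom, 5.33 more from the eBayes prior). For 3 contrasts, two-sided p-values were adjusted by Benjamini and Hochberg's method across the 31053 probes and called when under 0.05. The steps were tested on simulated data. The number of arrays limits the precision. Sequences are the probe sequences of the scanner files.

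The members, lists and tests were chosen with earlier results of these data known. Named probes are the 2 with the highest score and, per tested comparison, the 2 largest falls and 2 largest rises past the threshold without overlap of arrays, with overlapping probes named together. Alternatives changed the background correction, normalization, channel, filter, blocks, arrays and list. Same-numbered arrays did not deviate together (r = -0.0492, -0.0601 and 0.113 in the 3 comparisons), so the numbers were not used as pairs. Between passage 10 and standard day 3, a comparison given without a test, the number marks a shared slide (r = 0.254). Gene lists were not applied, since 0 probes carry a gene name.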

Additional observations from a re-analysis of the deposited data

Results flagged for a closer look

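By a direct limma test of day 7 against day 4 colonies, many members differed, and so did many of all tested probes. Of the 150 probes, 50 were lower in day 7 colonies (33.3%, where 25.4% of all tested probes were lower). Higher were 52 (34.7%, where 27.4% were higher). Against passage 10, 11 were lower in one kind of colony and higher in the other, each past limma's threshold in all 3 comparisons. The 11 are 7.33% of the members, near the 6.25% of all tested probes that met the same condition.

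Among the named probes, day 7 minus day 4 colonies was -3.05 on the log2 scale for each of Z00074574-1 and Z00002490-1 (overlapping probes), and -3.09 for Z00022498-1. These 3 probes stood above passage 10 in day 4 colonies and below it in day 7 colonies. The difference was 3.29 for Z00025416-1 and 1.85 for Z00030587-1, which stood above passage 10 in day 7 colonies and below it in day 4 colonies. It was 2.03 for Z00025439-1 and -1.46 for Z00030538-1, which were below passage 10 in both kinds of colony. All of these passed limma's threshold, with 2 arrays against 2. Line, strain, day of sampling and slide differed together between the kinds of colony, as did the way of sampling by the labels' extraction text. These cannot be told apart.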

How the results depend on the processing

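Each of the 237 refits of a named probe kept its direction and its side of the threshold, and so did the direction of the falls in day 4 and day 7 colonies against passage 10 under every alternative run. Counts of 120 and 8 (day 4 lower and higher), 119 and 9 (day 7) and 50 and 52 (day 7 against day 4) became, with replicate number as a block, 121 and 8, 120 and 9, and 51 and 52. With 1 array left out at a time they ranged over 113 to 118 and 6 to 8, 115 to 122 and 6 to 15, and 40 to 57 and 44 to 53. The count of 15 was without the first day 7 array.

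In the main fit 24.4% of all tested probes were lower and 25.8% higher in day 4 colonies, and 26.6% and 29.1% in day 7 colonies. Between the colonies these shares were 25.4% and 27.4%. They change with the processing, so the counts in this section cannot be read as shares above or below that background. Median centring gave 27 lower between the colonies, where the share of all tested probes was smaller too. Cy3 alone gave 4 higher in day 7 colonies. The authors' table, with 115 members, gave 5 higher in day 4 colonies, 2 in day 7 colonies and 33 lower between them. Only 98 members pass the strictest filter, of which 78 fell in day 7 colonies. The top 75 probes gave 64 and 2, 59 and 4, and 22 and 25, and the top 300 gave 223 and 25, 221 and 28, and 101 and 94. Choosing members on loess values gave 15 higher in day 7 colonies. Members 2-fold above the reference in passage 10 numbered 102 with Agilent's ratios, 23 with median centring, 29 in the top 75, 93 in the top 300 and 83 when chosen on loess values; that count was not run with Cy3 alone or the authors' table, which give no level against the reference. Shorter and longer lists change counts by construction; other causes were not tested. Scan day as a fixed block and a fit on 6 arrays, both chosen after seeing the data, gave 118 and 8 and 120 and 7 in day 4 colonies. Brightness limits the falls of members at background, whose full size was not measured.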
